A study of Mus musculus with 8 samples.

Results

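The proteins encoded by *Dnmt1*, *Dnmt3a*, *Dnmt3b*, *Uhrf1*, *Tet1*, *Tet2*, *Tet3*, *Mbd1* and *Mbd2* write, copy, remove and read DNA methylation. These 9 genes, of the 13704 listed in at least 1 library, were picked by symbol for what their proteins do, with earlier results of these data already known. They were measured by mRNA sequencing in T helper 17 (Th17) cells, the IL-17-making class of CD4+ T cells, to ask how loss of TRIM28, a chromatin co-factor, changed their RNA. The libraries were 1 from wild-type (WT) mice and 1 from *Trim28* fl/fl x CD4cre (KO) mice, both on a C57BL/6 background. In the KO mice, Cre driven by the *Cd4* promoter deletes *Trim28* in all cells of the T-cell lineage that pass through a CD4+ stage, and the labels state no Cre for the WT mice. Naive CD4+CD25-CD62Lhi CD44low T cells from spleen and lymph nodes were activated with anti-CD3 and anti-CD28, kept in culture over 3 days in TGF-β at 0.5 ng/ml plus IL-6 at 20 ng/ml, and stimulated again through CD3. The age of the mice behind these libraries and the number pooled per library are not given in the sources used here. With 1 library per genotype there was no replicate check, so every test on reads compared these libraries, not the genotypes, and every interval covers counting error only.

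In mammals DNA methylation sits mainly on the C of CpG pairs. DNMT3A and DNMT3B place it on unmarked DNA, and UHRF1 recognises half-marked CpGs behind the replication fork and brings in DNMT1, which copies the mark to the new strand. The TET enzymes oxidise 5-methylcytosine to 5-hydroxymethylcytosine and beyond, using 2-oxoglutarate and oxygen, which opens a route back to plain cytosine. MBD1 and MBD2 bind methylated CpGs and recruit repressors, MBD2 as a subunit of the NuRD remodelling and deacetylase complex. In T helper cells DNA methylation is known to keep the cytokine genes of other lineages silent.

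Reads fell on 13078 genes in WT cells and on 12754 in KO cells, and the 10881 genes that reached 10 reads in sum held 6644313 WT reads and 6180715 KO reads, 99.9% of each total. At these depths 3 reads, the floor used for a gene with no reads, correspond to a WT level of 0.451 and a KO level of 0.485 in counts per 1000000 reads (CPM). *Trim28* itself went from 4485 to 180 reads, a log2 fold change (KO over WT) of -4.53 (exact 95% interval -4.76 to -4.32). Of the Th17 marker list 2 of 5 tested genes were called lower, and its 6 genes summed to 1139 CPM in WT cells and to 329 CPM in KO cells. The 6 T-cell markers were all detected, summing to 3716 CPM in WT cells and to 3252 CPM in KO cells. Among markers of other cells, the NK-cell and erythroid lists had 0 reads in both libraries, and the myeloid list had 4 WT and 3 KO reads. The B-cell list held 83 WT and 44 KO reads in sum and the CD8 list 53 and 29. In such bulk RNA, fewer cells of a type and less RNA per cell cannot be told apart.

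The 9 genes fell into 2 sets by read number (plot of the level of each gene). *Tet2*, *Tet3*, *Mbd1* and *Mbd2* had between 211 and 1890 reads in each library, whereas *Dnmt1*, *Dnmt3a*, *Dnmt3b*, *Uhrf1* and *Tet1* had at most 15. Only genes with at least 10 reads were tested, which left 5 of the 9. A gene was called when an exact binomial test gave an adjusted p under 0.05 (Benjamini-Hochberg, over all genes tested) and the change was at least 2-fold. Of the 5 genes tested, 1 was called lower (*Dnmt3a*) and 1 higher (*Mbd1*), where 5.53% of all genes tested were called lower, 2.57% higher and 8.11% either way. Intervals for counting error lay below 0 for 3 of the 5 (25% of all genes tested) and above 0 for 1 (23.5%). With the fold changes of the 5 genes ranked, the middle one was -0.39, beside -0.02 over all genes tested.

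**Figure D1:**
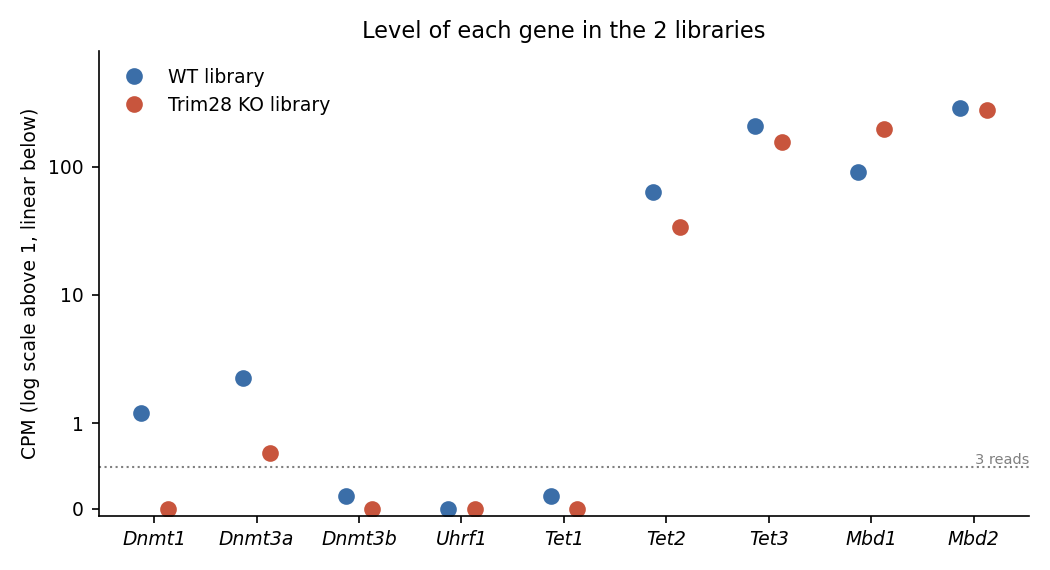
Level of the 9 genes in CPM (log scale above 1 and linear below), with 1 point for the WT library and 1 for the KO library and no replicates. *Tet2*, *Tet3*, *Mbd1* and *Mbd2* lie between 34.1 and 284 CPM, and the other 5 genes at 2.26 CPM or lower, *Mbd1* being the one gene of the upper set that stands clearly higher in the KO library. The points of *Dnmt1*, *Dnmt3a*, *Dnmt3b* and *Uhrf1* reflect counts only and are not levels to set beside those of the other genes.

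The genes that place and copy methylation were close to or at 0 reads. *Dnmt1*, the maintenance methyltransferase (chr9:20907206-20959888 of GRCm38, minus strand, 39 exons), had 8 WT reads and 0 KO reads. Its WT level of 1.20 CPM was 2.48-fold the 3-read floor of the KO library, a ratio that leaves out the counting error of the 8 reads. The exact 95% interval of its log2 fold change reached up to -0.67, and with fewer than 10 reads it was not tested. *Dnmt3a*, a de novo methyltransferase (chr12:3801559-3914443, plus strand, 18 to 23 exons), had 15 WT reads and 4 KO reads, or 2.26 and 0.647 CPM. On the log2 scale it was -1.68 (exact 95% interval -3.85 to -0.15, adjusted p = 0.0475 by the exact binomial test), and it was the lowest of the 5 values. This call rests on 19 reads and was lost (adjusted p = 0.130) when edgeR's exact test was given a spread between cultures of 0.1 (SD over mean), a value assumed because it could not be measured. *Dnmt3b*, the other de novo enzyme (chr2:153649411-153687730, plus strand, 20 to 24 exons), had 1 WT read and 0 KO reads. *Uhrf1*, the reader that brings DNMT1 to replicated DNA (chr17:56303337-56323486, plus strand, 17 exons), had 0 reads in both libraries. The 3 methyltransferase genes together had 24 WT and 4 KO reads, and *Dnmt3a* gave 15 and 4 of them.

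These 4 low genes shared a feature of their annotation (plot of reads by older curated transcripts). The deposited values are numbers of uniquely assigned reads, and how reads that fit several transcripts of a gene were treated is not given in the sources used here. RefSeq transcripts with curated accession numbers below 1300000 were taken as the older ones, those most likely to be present in an annotation of the study's time. *Dnmt1* had 4 of them, *Dnmt3a* 3, *Dnmt3b* 9 and *Uhrf1* 4, while *Tet1*, *Tet2*, *Tet3*, *Mbd1* and *Mbd2* had 1 each. The bases that lie in exactly 1 older transcript numbered 934 for *Dnmt1*, 353 for *Dnmt3a*, 3 for *Dnmt3b* and 0 for *Uhrf1*. No exon of the 9 genes overlapped a curated exon of another gene.

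Over the whole table, genes with many reads were rarer in the classes of the 4 low genes. Of 15960 genes with 1 older transcript, 26.5% had at least 500 reads over both libraries. Of 2273 genes with more than 1 older transcript and over 100 and up to 1000 bases in exactly 1 of them, the class of *Dnmt1* and *Dnmt3a*, 6.78% reached 500 reads. Of 1491 genes with at most 100 such bases, the class of *Dnmt3b* and *Uhrf1*, 6.37% did. Among the 22 replication genes of the S-phase list, the 16 with 1 older transcript had a median of 3437 reads, ranging from 97 to 8972. The 6 with 2 or more had a median of 206, ranging from 13 to 888, so the ranges overlapped. The part of this feature in the low reads of the 4 genes was not tested, and their reads are given here as counts only, not as levels to set beside those of the other genes. *Tet1*, with 1 read and 1 older transcript of 14354 exonic bases, does not share it. When the test was run on the genes with 1 older transcript alone, 0 of the 4 tested genes of the 9 were called lower and 1 higher, *Mbd1*, beside 5.03% and 2.68% of the 8126 genes in that test. *Dnmt3a*, with 3 older transcripts, was left out by this restriction, so the count called lower was fixed in advance and says nothing about it.

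**Figure D2:**
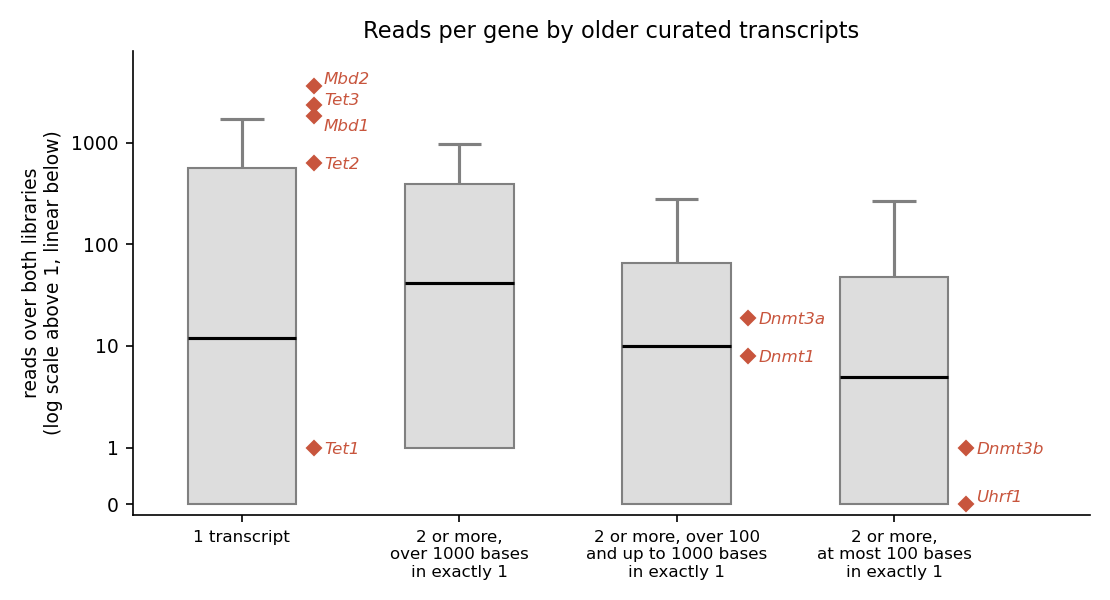
Reads per gene summed over both libraries (log scale above 1, linear below) for annotated genes with at least 1 older curated transcript, grouped by the number of older curated transcripts and the bases in exactly 1 of them. Boxes give the quartiles with the median as a line, whiskers reach the 90th percentile, and diamonds are the 9 genes, with *Dnmt1*, *Dnmt3a*, *Dnmt3b* and *Uhrf1* all in the classes of 2 or more transcripts and at most 1000 such bases.

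Of the TET genes, *Tet2* and *Tet3* carried the reads. *Tet1* (chr10:62804570-62887469, minus strand, 13 exons), known best from embryonic stem cells and germ cells, had 1 WT read and 0 KO reads. *Tet2* (chr3:133463677-133545136, minus strand, 11 to 12 exons), a TET enzyme known in T helper cells for acting at cytokine genes, had 420 WT reads and 211 KO reads. In CPM per kilobase of its longest transcript (RPKM), its WT level was 6.88 (exact Poisson 95% interval 6.24 to 7.57) and its KO level 3.72 (3.23 to 4.25). The log2 fold change was -0.89 (-1.13 to -0.65), that is 1.85-fold lower in KO cells with adjusted p = 1.01e-12 by the exact binomial test, but under the 2-fold limit. *Tet3* (chr6:83362373-83457208, minus strand, 11 to 12 exons), the TET enzyme of the fertilised egg and of many adult tissues, had 1368 WT reads and 969 KO reads. Its WT level was 18.9 RPKM (17.9 to 19.9) and its KO level 14.4 RPKM (13.5 to 15.3), for a log2 change of -0.39 (-0.51 to -0.27, adjusted p = 6.8e-10 by the exact binomial test), again under the 2-fold limit. These p-values cover counting error only. When edgeR's exact test was given a spread between cultures of 0.1, the adjusted p was 0.00414 for *Tet2* and 0.239 for *Tet3*. At 0.2 the same test gave 0.504 and 0.944.

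Together the TET genes had 1789 WT and 1180 KO reads, and the log2 change of the sum was -0.50 (-0.60 to -0.39). The mix of the pair also differed between the libraries. For each read of *Tet3*, WT cells had 0.307 and KO cells 0.218 reads of *Tet2*. The ratio of these ratios was 0.709 (exact 95% interval 0.587 to 0.856, adjusted p = 0.000733 by Fisher's exact test over the 6 pairs compared), which needs no scaling of the libraries. The pairs *Dnmt3a* and *Dnmt3b*, *Dnmt1* and *Uhrf1*, *Tet1* and *Tet2*, and *Tet1* and *Tet3* had too few reads to show a difference, with p = 1 in each by Fisher's exact test.

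*Mbd1* was the one gene of the 9 called higher. *Mbd1* (chr18:74267605-74282737, plus strand, 15 to 16 exons), whose protein also carries CXXC zinc fingers and works with an H3K9 methyltransferase, had 599 WT reads and 1216 KO reads. Its WT level was 23.0 RPKM (21.2 to 24.9) and its KO level 50.2 RPKM (47.4 to 53.1). The log2 fold change was 1.13 (0.98 to 1.27), a 2.18-fold higher level with adjusted p = 9.62e-57 by the exact binomial test, and 97% of all genes tested had a lower value. When edgeR's exact test was given a spread between cultures of 0.2 (SD over mean), the adjusted p was 0.204 and *Mbd1* was not called, while at 0.1 it was. The annotation holds 4 curated transcripts of *Mbd1*, and the reads per gene do not tell them apart. *Mbd2* (chr18:70568225-70629134, plus strand, 3 to 7 exons), on the same chromosome, had 1890 WT reads and 1707 KO reads. Its WT level was 146 RPKM and its KO level 141 RPKM, for a log2 change of -0.04 (-0.14 to 0.05, adjusted p = 0.522 by the exact binomial test).

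The balance of these readers moved with *Mbd1*. For each read of *Mbd2*, WT cells had 0.317 and KO cells 0.712 reads of *Mbd1*, and the ratio of these ratios was 2.25 (1.99 to 2.53, adjusted p = 4.7e-42 by Fisher's exact test over the 6 pairs). Per length, *Mbd2* had the highest level of the 4 well-covered genes in both libraries, followed by *Mbd1*, *Tet3* and *Tet2*, and no neighbours in this order had overlapping counting intervals. The order of *Mbd1* and *Tet3* in the WT library, 23.0 against 18.9 RPKM, rests on the transcript lengths of 3920 and 10904 bases used here.

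**Figure D3:**
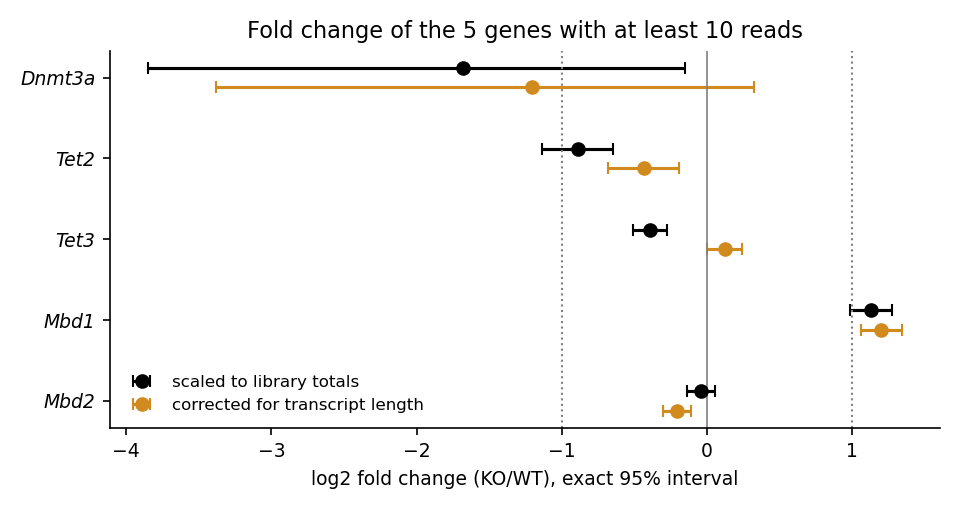
Log2 fold change (KO over WT) of the 5 genes with at least 10 reads, with exact 95% intervals for counting error, scaled to library totals (black) and after correction for transcript length (orange). Dotted lines mark 2-fold and the grey line no change, and *Mbd1* stays near 1.13 and 1.20 under both while *Tet3* crosses from -0.39 to 0.12.

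Transcript length moved with the fold change over the whole table, and the 9 genes include long transcripts. Length of the longest transcript and change were related with a Spearman's rho of -0.37 across 10797 tested genes, a description over genes that share both libraries. Split by length into 10 bins of like gene number, the bin of the longest transcripts had a median of -0.44 on the log2 scale, and *Dnmt3a*, *Tet2* and *Tet3*, at 9685, 9179 and 10904 bases, belong to it. *Mbd1*, at 3920 bases, lies in a bin with a median of -0.08, and *Mbd2*, at 1953 bases, in a bin with a median of 0.14. With the trend taken off by a loess curve, the values became -1.21 for *Dnmt3a* (-3.38 to 0.32, adjusted p = 0.201), -0.43 for *Tet2* (-0.68 to -0.19, adjusted p = 0.00135) and 0.12 for *Tet3* (0.00 to 0.24, adjusted p = 0.104). So *Dnmt3a* was not called and *Tet3* changed sign, while the counting interval of *Tet2* still lay below 0. The corrected value of *Mbd1* was 1.20 (1.06 to 1.34) and it was still called. That of *Mbd2* was -0.21 (-0.30 to -0.11, adjusted p = 0.000111 by the exact binomial test), so its counting interval now lay below 0, but it was not called. On the corrected scale 0 of the 5 genes were called lower and 1 higher, beside 4.31% and 2.46% of all genes. The cause of the length trend was not tested.

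**Figure D4:**
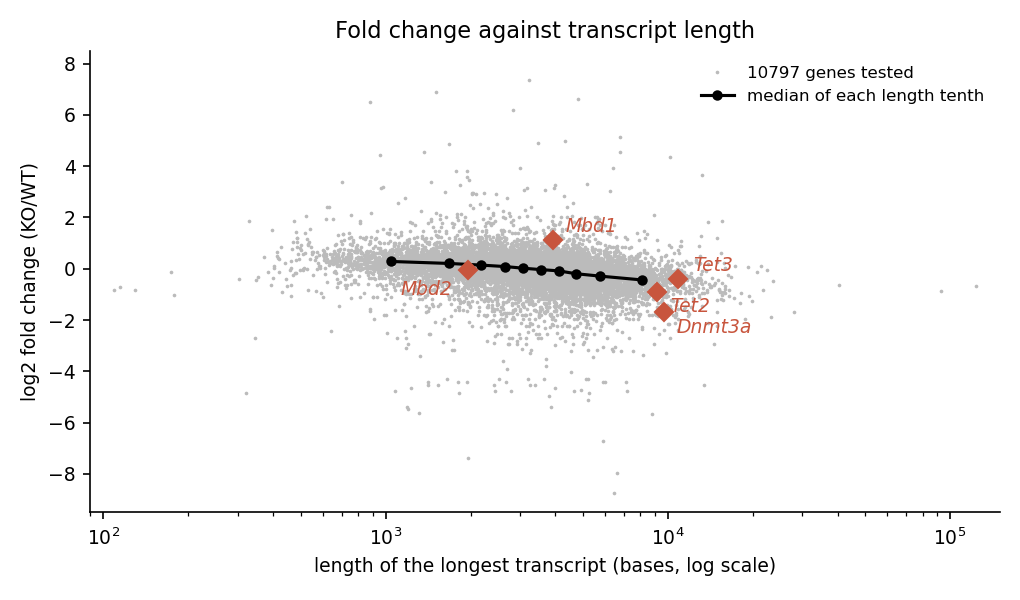
Log2 fold change (KO over WT) against the length of the longest transcript (bases, log scale) for 10797 tested genes (grey), with the median of each of 10 bins of genes by length (black) and the 5 tested genes of the 9 (red diamonds). The medians fall with length to -0.44 in the bin of the longest transcripts, where *Dnmt3a*, *Tet2* and *Tet3* lie, while *Mbd1* stands above the medians around it.

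Promoter letters were read for the genes whose RNA results turn on copying, placing and removing the mark. RefSeq windows (GRCm38.p6), taken from 250 bases before to 30 after an annotated start, existed for 7 of the 9 genes. Over all 32851 windows the median was 6 CpG pairs, against 56 for *Tet2*, 26 for *Dnmt3b*, 20 for *Tet3* and 16 for *Tet1*. Genes with several starts varied among them, with 2, 9 and 30 CpG pairs for *Dnmt1*, 43, 43 and 17 for *Dnmt3a*, and 11 and 32 for *Uhrf1*. The motifs TTTCCCGC, TTTCGCGC, TTTGGCGC and TTTGCCGC, letters of the E2F site known from replication genes, were searched on both strands, and overlapping matches each counted. They occurred in 2.12% of all windows and in any window of 2.45% of all genes, beside 6 of the 16 S-phase genes with a window. The 7 genes of the 9 had 12 windows, and 1 window each of *Dnmt1* (the third start) and *Uhrf1* (the second) held a match. The *Uhrf1* stretch (chr17:56304063-56304244, plus strand) shows its match in capitals, and those of *Dnmt3a* (chr12:3806730-3806979, plus strand) and *Tet3* (chr6:83441679-83441928, minus strand) show each CpG in capitals. All 3 stretches precede an alternative start inside the gene, end before the exon there and hold no annotated exonic base of the gene, and a match is a description of letters, not of a bound site.
Uhrf1: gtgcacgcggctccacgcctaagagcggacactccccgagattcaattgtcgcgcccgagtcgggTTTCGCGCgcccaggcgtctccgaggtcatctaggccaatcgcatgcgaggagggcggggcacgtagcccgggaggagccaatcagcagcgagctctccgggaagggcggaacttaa
Dnmt3a: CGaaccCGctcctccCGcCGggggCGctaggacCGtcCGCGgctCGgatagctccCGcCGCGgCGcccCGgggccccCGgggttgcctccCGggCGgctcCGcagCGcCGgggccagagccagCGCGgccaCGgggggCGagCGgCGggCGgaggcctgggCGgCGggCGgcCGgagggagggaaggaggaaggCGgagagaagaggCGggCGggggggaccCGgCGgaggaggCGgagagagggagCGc
Tet3: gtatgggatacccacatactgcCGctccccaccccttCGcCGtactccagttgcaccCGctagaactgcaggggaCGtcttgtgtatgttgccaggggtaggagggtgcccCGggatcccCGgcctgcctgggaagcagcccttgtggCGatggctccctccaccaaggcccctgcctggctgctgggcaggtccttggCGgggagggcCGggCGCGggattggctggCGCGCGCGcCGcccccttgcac

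The *Dnmt3a* stretch holds 38 CpGs and the *Tet3* stretch 17. No promoter methylation was measured in these libraries.

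The proteins that work with the 9 genes were described from lists chosen by function (plot of fold changes by list). The counts of called genes in these lists stand beside 5.53% of all genes tested called lower, 2.57% higher and 8.11% either way. Of 9 other genes grouped here as methyl-CpG readers or their relatives, 8 were tested and 0 were called in either direction. Not every protein of this list is a reader of methylated CpGs. The list's median was -0.14 on the log2 scale, which turned to 0.05 after length correction. *Mbd6*, an MBD-family gene, had 1614 WT and 1369 KO reads, and *Mbd3*, the alternative to *Mbd2* in NuRD, had 919 and 1064, for log2 changes of -0.13 and 0.32. *Uhrf2*, the paralog of *Uhrf1*, named after its values were seen, had 898 WT and 620 KO reads, or -0.43 on the log2 scale. The highest value among the tested genes of this list was 0.60, beside 1.13 for *Mbd1*.

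Of the partners of maintenance methylation, 9 of 10 were tested, 0 were called, and the median was 0.22. *Pcna*, the sliding clamp that DNMT1 binds, had 4086 WT and 5327 KO reads, for a log2 change of 0.49 (0.43 to 0.55). *Pclaf*, a PCNA-bound factor of replicating cells, had 1710 WT and 2429 KO reads, or 0.61 on the log2 scale (0.52 to 0.70). The 22 S-phase genes were all tested, with 0 called, a median of 0.44 and 15 intervals above 0, where 23.5% of all genes tested had an interval above 0. *Mcm6* and *Mcm5*, helicase subunits, had log2 fold changes of 0.12 (4458 and 4514 reads) and 0.52 (2965 and 3956 reads). Reads of *Dnmt1* and *Uhrf1*, whose products act at the same forks, were too few to set beside these values.

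Of the repair and other partners of the TET enzymes, 16 of 17 were tested, 0 were called lower and 1 higher, with a median of 0.08. *Gadd45b*, a stress-response gene linked to active demethylation, was the one called, with 62 WT and 119 KO reads and 1.04 on the log2 scale (0.59 to 1.51, adjusted p = 1.21e-05 by the exact binomial test), and it was not called after length correction (0.81). *Ogt*, the O-GlcNAc transferase that binds TET2 and TET3, had 4923 WT and 2353 KO reads, for a log2 change of -0.96 (-1.03 to -0.89), just under the 2-fold limit, and of -0.71 after length correction. *Parp1*, a sensor of strand breaks in repair, had 2122 and 2004 reads and a value of 0.02.

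Enzymes that supply the substrates of methylation and of its removal had no called gene, which in lists this short is near the 8.11% called over all genes tested. For the methyl donor, 10 of 12 genes were tested, with a median of 0.18. *Ahcy*, which clears the methylation by-product S-adenosylhomocysteine, had 3037 WT and 3419 KO reads (log2 change 0.28), and *Mat2a*, which makes S-adenosylmethionine, had 2519 and 1619 (-0.53, or -0.52 after length correction). For the TET co-substrate 2-oxoglutarate and its rivals succinate and fumarate, 12 of 13 genes were tested, with a median of 0.26 that became 0.09 after length correction. *Sdha*, a succinate dehydrogenase subunit, had 1791 and 1769 reads (0.09), and *Idh3g*, an isocitrate dehydrogenase subunit, 1322 and 1439 (0.23).

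The repressor complexes downstream of the readers were also without a call, which in lists this short is near the 8.11% called over all genes tested. All 12 NuRD subunits listed were tested, with a median of 0.01, and *Chd4* and *Chd3*, its remodelling motors, had 9255 WT and 7370 KO reads (-0.22) and 4399 WT and 3887 KO reads (-0.07). Both of these values became positive after length correction, at 0.12 and 0.30. The NuRD subunit gene with the lowest value was *Gatad2b*, with 577 WT and 271 KO reads. Its log2 change was -0.98 (-1.20 to -0.77), just under the 2-fold limit, and -0.60 after length correction. Of the genes for H3K9 methylation and heterochromatin that work with TRIM28, 11 of 14 were tested, with a median of 0.08. *Cbx3*, which encodes a heterochromatin protein 1, had 1576 and 1902 reads (0.38), and *Atrx*, a remodeller of heterochromatin with a long transcript, had 2208 and 1210 reads (-0.76, or -0.27 after length correction).

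**Figure D5:**
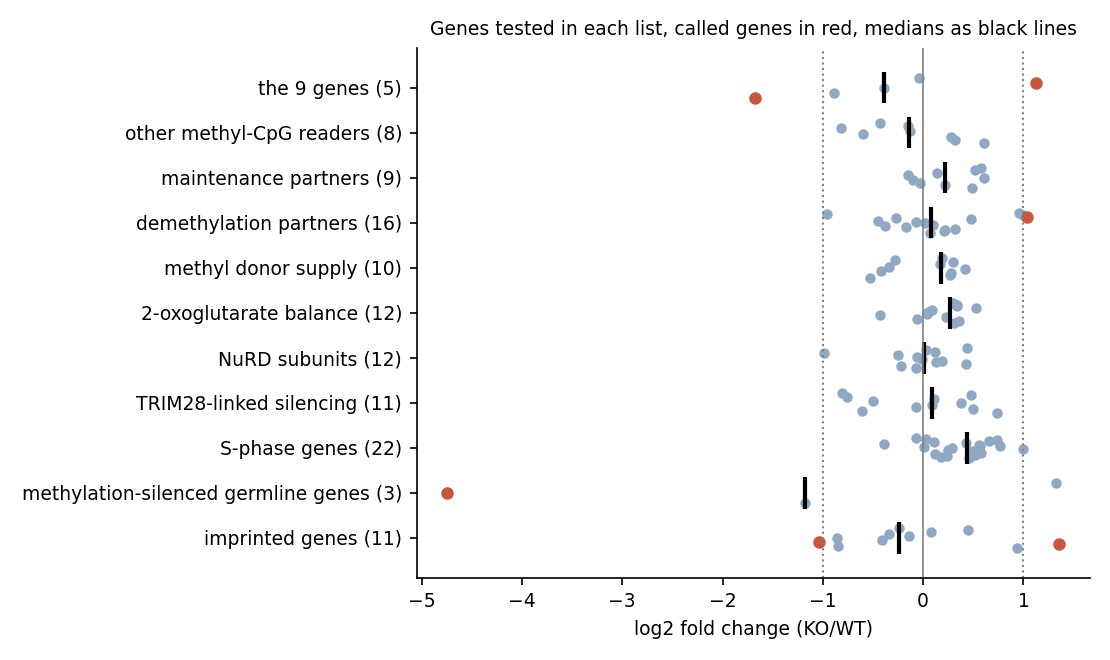
Log2 fold change (KO over WT) of each tested gene in the 9 genes and in 10 lists of related genes, with the number tested in brackets, called genes in red, list medians as black lines and dotted lines at 2-fold. Apart from *Dnmt3a* and *Mbd1*, the called genes are *Gadd45b*, *Piwil2*, *Plagl1* and *Peg13*, and the other 7 lists hold 0 called genes.

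The nearest genes on either side of the 9 genes with at least 10 reads numbered 18. Of these, 0 were called lower and 1 higher, beside the shares of 5.53% and 2.57% over all genes. It was *Myo5b*, a motor protein gene 159627 bases beyond *Mbd1*, with 2 WT and 54 KO reads, or 4.55 on the log2 scale (2.94 to 7.94, adjusted p = 4.48e-14 by the exact binomial test). On the other side of *Mbd1*, 46112 bases away, *Cxxc1*, which encodes a reader of unmethylated CpGs, had 1150 WT and 1592 KO reads, or 0.57 on the log2 scale. *Cxxc1* was not called and was named after its value was seen. Such a value was not particular to this side of *Mbd1*, as *Bola3*, beside *Tet3*, had 0.52. Over the 18 neighbours the values ran from -1.17 to 4.55.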

How the data were processed

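The authors deposited, for each RNA-seq library, a table of counts per gene, which are raw numbers of uniquely placed reads. The methods name SOAP2 and mm10 for mapping, and the submitters' processing notes name bcl2fastq, HTSeq, Bowtie and SICER 1.1 for the series as a whole. The counting program, annotation and strand setting behind these counts are not given in the sources used here. ChIP-seq samples were not analysed here. Genes absent from 1 table were given 0 reads there. Totals of 6650066 (WT) and 6185108 (KO) counts set the precision.

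Levels were computed as CPM and as RPKM on the longest GENCODE M21 transcript. Fold changes, with 0.5 added to each count, were scaled to library totals. For genes with at least 10 reads, the KO reads were compared with the KO share of all reads in an exact binomial test, two-sided, with Clopper-Pearson 95% intervals (Python 3.11.15, SciPy 1.17.1, statsmodels 0.14.6). edgeR's quasi-likelihood test needs replicates and could not be run. The limits of 2-fold and an adjusted p of 0.05 are those of the methods. Pairs were compared with two-sided Fisher's exact tests. Alternatives used edgeR 4.0.16 and DESeq2 1.42.0 in R 4.3.3, and the loess corrections had a span of 0.3. Positions and transcripts are from RefSeq on GRCm38, the assembly behind mm10. Of the gene names 12841 matched a symbol, 804 a unique older symbol and 59 none, and 99.2% of the tested genes had a length. Calling was run on simulated data as a check of the code only, which does not measure the spread between cultures in these libraries.

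The 9 genes and all lists were chosen with earlier results of these data known. From each list other than the cell type markers, the text names every called gene and, where fewer than 2 were called, the 2 with the most reads, besides called neighbours of the 9 genes. *Uhrf2*, *Gatad2b*, *Tuba3a*, *Cxxc1* and *Bola3* were added after their values were seen.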

Additional observations from a re-analysis of the deposited data

How the results depend on the processing

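*Mbd1* kept its direction under each alternative run and was called in all but 2 of them. With variation between cultures assumed in edgeR's exact test, at a coefficient of 0.1 it was called (adjusted p = 1.47e-05), and with 0.2 and 0.4 it was not (adjusted p = 0.204 and 1), so 0 of the 9 genes were called higher there. *Dnmt3a*, with 19 reads in all, was not called with the length correction, with variation of 0.1, 0.2 or 0.4, or with an adjusted p under 0.001. It was left out, not tested again, with at least 10 reads in each library. The same holds among genes with 1 older transcript, an alternative chosen after seeing the data. In each of these settings 0 genes of the 9 were called lower. Without a filter the adjusted p of *Dnmt3a* was 0.0591 by the exact binomial test and *Dnmt1* was called. At a 1.5-fold limit 2 of the 9 genes were called lower, *Tet2* being the addition. *Tet3* reversed with the length correction, to 0.12. The median of the tested genes of the 9 was -1.18 with no filter, -0.22 with at least 10 reads in each library, -0.21 with the length correction and -0.22 for genes with 1 older transcript. Over the whole table, 389 genes were called lower and 184 higher with at least 10 reads in each library, 131 and 65 with variation of 0.2, 9 and 7 with 0.4, 1248 and 764 at 1.5-fold, and 370 and 170 with an adjusted p under 0.001. The share lower among called genes was 68.3%, and 56.3% with variation of 0.4. Where calls fell with the stricter filters, limits and assumed variation, that follows from how these were built, and the cause of the length trend was not tested. TMM or DESeq2 scaling gave 2 called demethylation partners and 1 called S-phase gene, all higher. *Gadd45b* and *Plagl1* were not called with a pseudocount of 5, a length correction or a GC correction, and *Piwil2* was left out with at least 10 reads in each library. No paired analysis was possible because each genotype had 1 library, and leaving a library out leaves no comparison. *Dnmt1*, *Dnmt3b*, *Uhrf1* and *Tet1* had fewer than 10 reads each, which limits what their counts can show.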

Other observations

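Genes whose silencing is known to depend on DNA methylation were looked at beside the 9 genes. Of 14 germline genes of this kind, 4 were listed in at least 1 library and 3 were tested. *Piwil2*, a PIWI protein gene of the germ line, was called lower, with 187 WT and 6 KO reads, or -4.75 on the log2 scale (exact 95% interval -6.32 to -3.71, adjusted p = 2.88e-43 by the exact binomial test) and of -4.55 after length correction. *Brdt*, a testis bromodomain gene, had 25 WT and 10 KO reads, for a log2 change of -1.18 (-2.44 to -0.11, adjusted p = 0.059 by the same test). The third tested gene, *Tuba3a*, lay the other way, with 4 WT and 10 KO reads. Its log2 change was 1.33 (-0.37 to 3.55) and it was not called. The list had 218 reads in sum in the WT library, most of them from *Piwil2*, and 26 in the KO library.

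Of 28 imprinted genes, whose active copy is set by methylation laid down in the germ line, 16 were listed and 11 were tested, with a median of -0.25 on the log2 scale, or -0.09 after length correction. *Plagl1*, a zinc finger gene of an imprinted network, was called lower, with 56 WT and 25 KO reads and -1.04 on the log2 scale (-1.80 to -0.35). *Peg13*, a long non-coding RNA, was called higher, with 35 WT and 84 KO reads, at 1.36 (0.78 to 1.98). With the length correction *Plagl1* was not called and *Peg13* was. Reads from the parental copies cannot be told apart in counts per gene.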
